A study of Mus musculus with 12 samples.

Results

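The 6 genes described here are Parp9, Dtx3l, Parp10, Parp11, Parp12 and Parp14, 5 interferon-inducible members of the poly(ADP-ribose) polymerase family and the ubiquitin ligase that partners one of them. They were taken by name from the gene symbols of the count tables, so that they make up 6 of 32288 rows, and all 6 passed the filter on low counts.

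RNA was sequenced from 12 subcutaneous tumors of P815, a mouse mastocytoma line that grows in syngeneic DBA/2 mice, with 3 mice in each of 4 groups and 1 tumor per mouse. P815-IFNG cells carried the light-switchable transactivator GAVPO and a UAS-driven cassette of Ifng, Cxcl10 and a Gaussia luciferase, together with mRuby and firefly luciferase, and P815-M cells carried mRuby and firefly luciferase alone. Each line was 1 single-cell clone, so that a difference between lines cannot be told apart from a difference between clones. The light groups received blue light on the tumor for 12 h a day over 6 days by the labels, the dark groups received none, and the tumor tissue held the host's cells as well as tumor cells. The comparison of light with dark in P815-IFNG tumors asks what light and the switched-on cassette do together. The same comparison in P815-M tumors is the control for the light itself, and the lines were also compared within each light condition.

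PARP enzymes transfer ADP-ribose from NAD to proteins, and the 5 genes here belong to the branch that adds single units or, for Parp9, has long been described as weak or inactive by itself. Interferons induce them through transcription factors that bind interferon-stimulated response elements (ISRE) and gamma-activated sites (GAS). PARP9 forms a complex with DTX3L, an E3 ubiquitin ligase of the Deltex family, and their genes lie head to head. PARP14 carries macrodomains that bind ADP-ribose and is known as a cofactor of STAT6, PARP10 and PARP11 are mono-ADP-ribosyltransferases, and PARP12 is an antiviral one with zinc fingers.

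In the GRCm38 annotation, 3 of the genes lie close together on chromosome 16. Parp14 (ENSMUSG00000034422.14, minus strand, 35832874 to 35871544) ends 54966 bases before Dtx3l (ENSMUSG00000049502.17, minus strand, 35926511 to 35939151) begins. Parp9 (ENSMUSG00000022906.15, plus strand, 35938470 to 35972605) overlaps Dtx3l on the opposite strand, and 458 exon bases belong to both, which is 9.40% of the exon bases of Parp9 and 8% of those of Dtx3l. Parp10 (ENSMUSG00000063268.12) lies on chromosome 15, from 76231174 to 76243441 on the minus strand, and shares 205 exon bases, 4.80% of its own, with Plec on the same strand. Parp11 (ENSMUSG00000037997.12, plus strand, 127446840 to 127494261) and Parp12 (ENSMUSG00000038507.6, minus strand, 39086410 to 39118349) lie on chromosome 6, and neither shares exon bases with another gene.

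Start-site windows from RefSeq (GRCm38.p6; 250 bases before to 50 after a start) matched 3 of the 6 genes, with 2 windows for Parp11. They were searched on both strands for the ISRE core, which is 2 runs of GAAA with 2 free bases between them, and the GAS TTCNNNGAA, because these are the elements through which interferons are known to act. The upstream start of Parp11 held both, overlapping each other, while its downstream start and the windows of Dtx3l and Parp12 held neither. Over 32851 windows of this length, 3.44% held the ISRE core and 8.30% the GAS, and a match is a description of the letters, not a bound site. The upstream Parp11 window is shown to let the matches be seen, with the ISRE core beginning at -44 and the GAS at -37 from the start, both in capitals, and the Dtx3l window is shown as one without a match, limited to the bases outside annotated exons.
Parp11, upstream start, plus strand, chr6:127446590-127446839: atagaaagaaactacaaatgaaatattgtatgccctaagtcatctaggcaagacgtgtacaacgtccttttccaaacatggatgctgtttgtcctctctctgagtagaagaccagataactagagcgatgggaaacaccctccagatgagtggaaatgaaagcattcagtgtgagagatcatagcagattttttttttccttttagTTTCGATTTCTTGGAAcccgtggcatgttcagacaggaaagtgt
Dtx3l, minus strand, chr16:35939207-35939277: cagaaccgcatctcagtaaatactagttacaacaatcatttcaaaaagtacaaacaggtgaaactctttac

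The libraries were of 2 kinds. Replicate 3 of both P815-IFNG groups held 41473500 counts in light and 42338096 in dark, and the other 10 libraries held 2211234 to 2946792. The mitochondrial gene mt-Nd6, which lies on the opposite strand from most genes of that genome, took 29.0% to 47.9% of the mitochondrial counts in the 10 shallow libraries and 3.56% and 3.85% in the 2 deep ones. Within the shallow libraries that share was 40.5% to 47.9% in light and 29.0% to 36.7% in dark, without overlap. What goes with this share therefore cannot be told apart from light in these libraries, and its part in the results below was not tested. Of 8 mast cell markers, 6 to 8 had counts in each group of libraries of 1 kind, with Fcer1a or Ms4a2 at 0 in 5 of the 6, and their summed level was 1395 to 2344 CPM, the counts scaled to a common library size, in shallow libraries against 6957 and 9005 CPM in the deep ones. Ifng itself lay at 1.76 to 14.9 CPM in P815-IFNG light libraries, 0.670 to 1.86 in P815-IFNG dark, 0.479 to 2.08 in P815-M light and 0 to 1.24 in P815-M dark. These values rest on 0 to 76 counts a library. The study had added the inserted sequences to the reference, and whether reads of the cassette fell in the Ifng row was not tested.

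The genes differed in level between the 2 kinds of library. Per kilobase of exon, the shallow libraries ranked them Parp9 (median 23.6 CPM per kb, range 12.7 to 38.5, n = 10), Dtx3l (14.1, 9.83 to 20.9), Parp10 (6.79, 4.75 to 11.4), Parp12 (4.69, 1.96 to 7.85), Parp14 (3.57, 1.06 to 10.3) and Parp11 (1.70, 0.818 to 2.63). The ranges of Parp10, Parp12 and Parp14 overlapped widely, so that their order is within the spread, and those of Parp9 and Dtx3l overlapped as well. In the deep libraries Parp9 lay at 6.83 and 11.9 CPM per kb and Dtx3l at 5.60 and 7.96, whereas Parp14 was lowest at 0.729 and 1.89.

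Within one group, P815-IFNG light, the 2 shallow libraries held Parp14 at 71.5 CPM on average, 4.06 times the 17.6 CPM of the deep library, and in P815-IFNG dark the ratio was 6.46. The ratios for light and dark were 2.93 and 2.49 for Parp9, 2.46 and 2.04 for Dtx3l, 1.98 and 1.43 for Parp10, and 1.57 and 1.92 for Parp12. Parp11 was the exception, with shallow libraries at 0.673 and 0.546 of the deep one. Each result was therefore computed in all 12 libraries, in the 10 shallow libraries alone, and, as values without a test, in the deep pair.

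**Figure D1:**
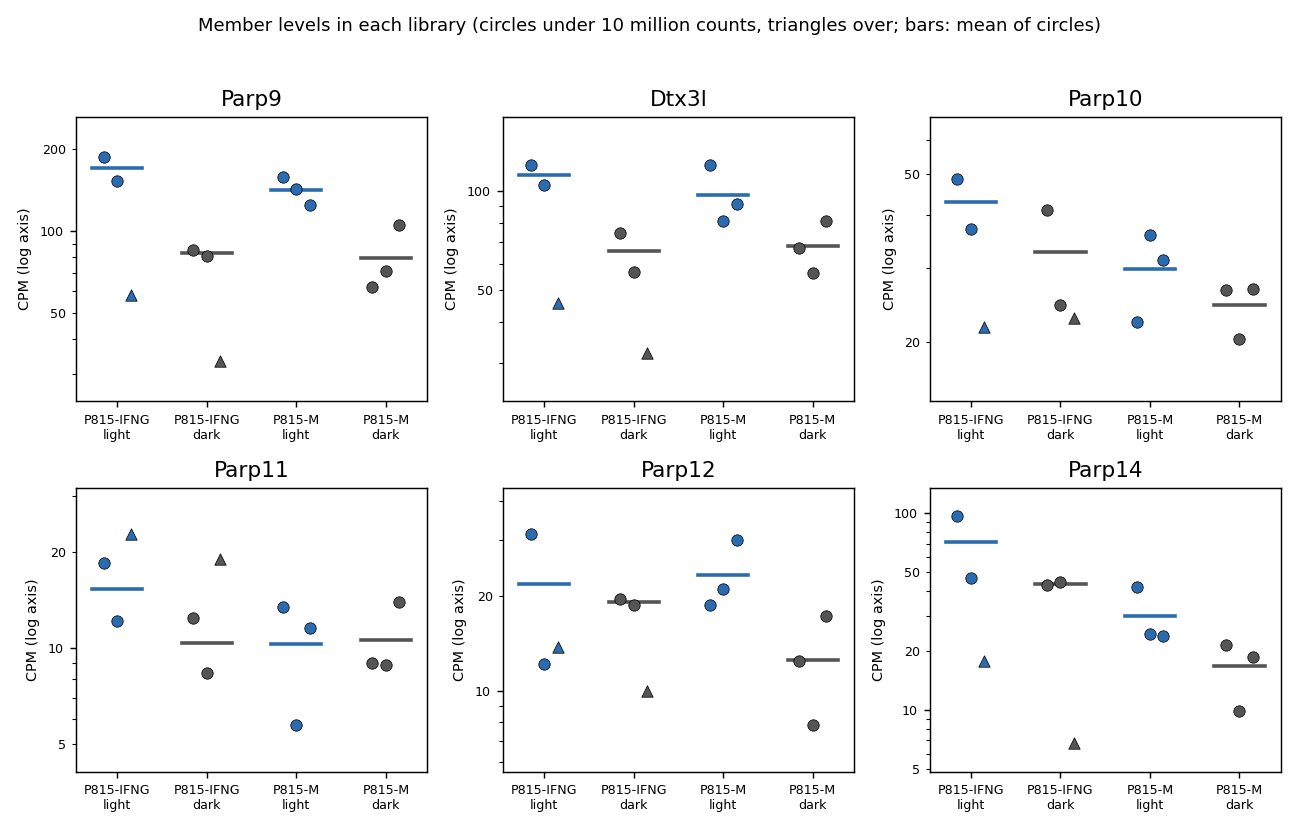
Level of each gene in every library, in CPM on a log axis, by tumor line and light condition, with circles for the 10 shallow libraries, triangles for the 2 deep ones and a bar at the mean of the circles. Triangles lie under the circles of their group for Parp9, Dtx3l, Parp10 and Parp14 and above them for Parp11, and the light circles of Parp9 lie above the dark ones in both lines.

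Parp9 was higher under light in both tumor lines. In P815-M tumors it measured 158, 143 and 124 CPM in light (142 ± 16.8, SD, n = 3) and 62.1, 71.4 and 105 CPM in dark (79.6 ± 22.8, n = 3), so that the groups did not overlap. In P815-IFNG tumors the shallow libraries held 187 and 152 CPM in light against 85.0 and 80.8 in dark, and the deep ones 58.1 in light against 33.3 in dark. Each kind of library thus placed light above dark, although the deep light library lay below the shallow dark ones.

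The log2 fold change of Parp9 averaged over both lines was 0.92 (SE 0.33) in all 12 libraries, with an adjusted p of 0.9999 by edgeR's quasi-likelihood test. In the 10 shallow libraries it was 0.92 (SE 0.15, adjusted p = 0.0108, edgeR), past the threshold on p but under the minimum of 1 that the study's call rule sets on the absolute log2 fold change. At any fold, 0.767% of 16944 genes passed that threshold with a higher level in light. By line, the shallow libraries gave 1.03 (SE 0.24, adjusted p = 0.227, edgeR) in P815-IFNG and 0.81 (SE 0.20, adjusted p = 0.0577, edgeR) in P815-M tumors, and the deep pair gave 0.81 in P815-IFNG. Leaving out each of the 10 libraries kept the averaged adjusted p between 0.00623 and 0.0715 (edgeR), and only without P815-IFNG light replicate 1 did it miss 0.05, with a log2 fold change of 0.84.

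Dtx3l, whose product works with that of Parp9, lay in the same direction with smaller values. It measured 119, 80.9 and 91.2 CPM in P815-M light and 66.7, 56.3 and 81.1 in P815-M dark, where the highest dark library passed the lowest light one. In P815-IFNG tumors the shallow light libraries stood at 119.9 and 104 CPM above 74.5 and 56.6 in dark, and the deep ones at 45.6 and 32.1. The averaged log2 fold change was 0.62 (SE 0.29, adjusted p = 0.9999, edgeR) in 12 libraries and 0.63 (SE 0.15, adjusted p = 0.0633, edgeR) in the shallow ones, and 0.51 in the deep pair.

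Parp14 also stood higher in light, with more spread. P815-M light libraries held 42.0, 24.4 and 23.7 CPM and P815-M dark libraries 21.5, 9.90 and 18.5, without overlap. P815-IFNG light libraries held 96.1 and 46.8 CPM with 17.6 in the deep one, and P815-IFNG dark libraries 43.1 and 44.6 with 6.79 in the deep one. Its averaged log2 fold change was 0.81 (SE 0.50, adjusted p = 0.9999, edgeR) in 12 libraries and 0.76 (SE 0.24, adjusted p = 0.135, edgeR) in the shallow ones, and the deep pair gave 1.38, the largest of the 6 genes there. In P815-IFNG tumors the 12-library log2 fold change of 0.77 became -0.01 without light replicate 1. That fit set 1 shallow and 1 deep light library against 2 shallow and 1 deep dark ones. The value in the shallow libraries alone, 0.71, became 0.08.

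Parp12 passed the test in neither line and had its larger light value in P815-M tumors, where 18.7, 21.1 and 30.0 CPM in light lay above 12.5, 7.81 and 17.3 in dark. P815-IFNG light libraries were at 31.4 and 12.2 CPM, around the 19.6 and 18.8 of the dark ones, with 13.8 and 10.001 in the deep pair. The log2 fold change was 0.89 (SE 0.47) in P815-M and 0.25 (SE 0.46) in P815-IFNG tumors in all 12 libraries (adjusted p = 1 for both, edgeR). The difference between the lines did not pass either (-0.63, SE 0.65).

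For Parp10 and Parp11 the light and dark ranges overlapped in both lines. Parp10 measured 22.3 to 35.9 CPM in P815-M light and 20.3 to 26.7 in P815-M dark, and in P815-IFNG tumors 48.7, 37.1 and 21.7 in light against 41.0, 24.5 and 22.9 in dark, with an averaged log2 fold change of 0.28 (SE 0.26). Parp11 measured 13.5, 5.75 and 11.6 CPM in P815-M light and 8.98, 8.86 and 14.0 in P815-M dark, and 18.5, 12.2 and 22.8 in P815-IFNG light against 12.4, 8.38 and 19.0 in P815-IFNG dark, with an averaged log2 fold change of 0.19 (SE 0.31). The lowest of these Parp11 values rests on 12 counts in the library. Between P815-IFNG libraries of the same replicate number, light lay above dark in 3 of 3 for Parp9, Dtx3l, Parp11 and Parp14. The same held for 11.7% of all genes tested. For Parp10 and Parp12 light lay above dark in 2 of 3. The labels do not say whether mice with equal numbers belong together.

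**Figure D2:**
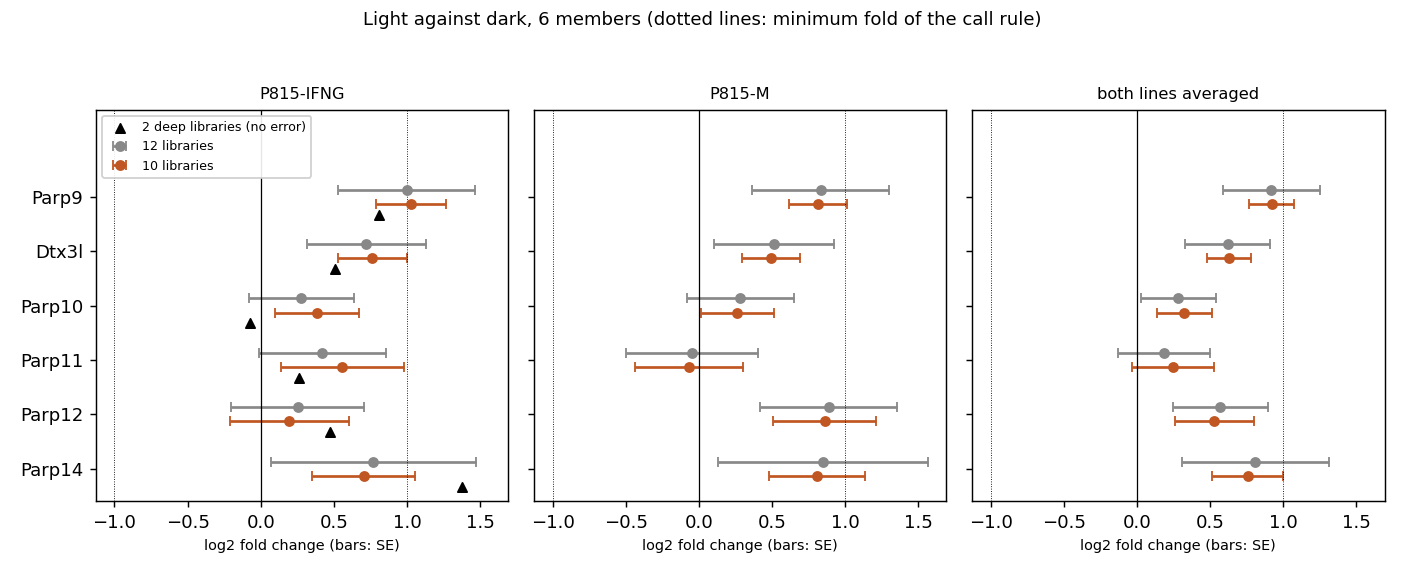
Log2 fold change of light against dark for the 6 genes in P815-IFNG tumors, in P815-M tumors and averaged over both lines, with bars of 1 standard error, grey for 12 libraries, orange for the 10 shallow ones and black triangles for the deep pair, which has no error. Parp9 has the highest averaged value, 0.92 in both fits, and the bars of the shallow fit are shorter than those of the 12-library fit.

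By the study's call rule (adjusted p of at most 0.05 and absolute log2 fold change of at least 1), 0 of the 6 genes were called for light against dark in P815-IFNG tumors, in P815-M tumors or on average. The rule called 0% of 18804 genes in each of these comparisons in 12 libraries with edgeR, where 409, 510 and 666 genes had an unadjusted p under 0.05, among them none of the 6 genes in either line and Parp9 on average. DESeq2 on the same counts called 4, 1 and 6 genes and none of the 6. The study used these thresholds with DESeq2 and IHW after ComBat-seq, a batch adjustment of counts, and that combination was not run here. It named Parp9 among immune-related genes high in light P815-IFNG tumors but not in dark ones. After ComBat-seq with library kind as batch, edgeR called 122, 235 and 263 genes and none of the 6. Parp9 was then at 0.97 in P815-IFNG tumors (SE 0.26, adjusted p = 0.0715, edgeR). In the shallow libraries the rule called 0.0059%, 0.927% and 0.454% of 16944 genes and again none of the 6. With 1 of the 10 shallow libraries left out in turn, these counts of 1, 157 and 77 genes became 0 to 9, 18 to 229 and 17 to 150. Parp9 was called in 1 of the 10 fits, without P815-M dark replicate 3, at 1.07 in P815-M tumors (adjusted p = 0.0287, edgeR) and 1.05 on average (adjusted p = 0.00623, edgeR).

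The direction was shared more widely than the calls. All 6 genes had a positive light effect in P815-IFNG tumors and on average, and 5 of 6 in P815-M tumors, Parp11 being at -0.05. The median log2 fold change of the 6 genes was 0.57, 0.67 and 0.59 in P815-IFNG, in P815-M and on average, beside medians over all genes tested of -0.02, 0.01 and 0.01. In P815-M tumors 3 of the 6 genes (Parp9, Parp12 and Parp14) had every light library above every dark one, as had 10.1% of all genes. In the shallow P815-IFNG libraries, with 2 against 2, that held for Parp9, Dtx3l and Parp14, as for 18.2% of all genes, and with the deep pair included it held for none of the 6 and for 0.994% of all genes.

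With library kind as a term in the 12-library fit, 3 of the 6 genes passed an adjusted p of 0.05 on average: Parp9 (0.89, SE 0.14, adjusted p = 0.00177, edgeR), Dtx3l (0.59, SE 0.13, adjusted p = 0.0271, edgeR) and Parp14 (0.89, SE 0.21, adjusted p = 0.0344, edgeR). All stayed under the minimum fold, and 1.47% of 18804 genes passed the same threshold with a higher level in light. Parp9 also passed at any fold in P815-M tumors (0.83, SE 0.19, adjusted p = 0.0369, edgeR), as did 1.16% of genes with a higher level in light. Macrophage and monocyte markers moved with light in P815-M tumors, where all 10 of 10 stood higher, C1qa among them was called, and their summed level was 1614 to 1846 CPM in light and 747.5 to 1046 in dark. In shallow P815-IFNG libraries 4 of the 10 were higher in light, with summed levels of 1343 to 1940 CPM in light and 1743 to 1901 in dark. Parp9 was at 1.03 there, with 2 libraries against 2 (adjusted p = 0.227, edgeR). The part of the macrophage markers in the light values of either line was not tested. No T cell, NK cell, dendritic cell, neutrophil, B cell or endothelial marker was called in any comparison of the shallow libraries, where the summed T cell markers lay at 4.88 to 27.7 CPM and the summed NK markers at 23.9 to 85.4 CPM. Several marker lists stood lower in light than in dark in the shallow P815-IFNG libraries. Their summed endothelial markers lay at 44.9 and 45.9 CPM in light against 114 and 143 in dark (1 of 5 higher in light). Dendritic cell markers lay at 33.2 and 50.7 against 79.4 and 87.5 (1 of 7), and adipocyte markers at 7.32 and 10.1 against 68.3 and 87.5 (0 of 4). None of 6 fibroblast and 6 skeletal muscle markers was higher. Mast cell markers were higher in light for 0 of 6, T cell markers for 1 of 8 and NK markers for 1 of 6. The summed levels of these last lists overlapped between light and dark. In the deep pair the adipocyte sum was 68.5 CPM in light and 10.8 in dark, and the part of these markers in the light values was not tested. None of the 10 macrophage markers was at 0 in any group, and in bulk tumor RNA fewer cells of a type and less RNA per cell cannot be told apart.

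The light effect was then set between the lines, which asks whether the cassette adds to what light does in P815-M tumors. None of the 6 genes was called, with 0% of 18804 genes called in 12 libraries (313 at an unadjusted p under 0.05, 4 called by DESeq2) and 0.0118% of 16944 in the shallow ones. The differences, P815-IFNG minus P815-M, ran from -0.63 for Parp12 (SE 0.65) to 0.47 for Parp11 (SE 0.63), and the shallow libraries gave -0.66 (SE 0.54) and 0.63 (SE 0.56). For Parp9 the shallow difference was 0.21 with an SE of 0.31. Its 95% interval, by a normal approximation that is somewhat narrow for so few libraries, ran from -0.39 to 0.81.

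Among the genes described here, Parp14 had the largest log2 fold change between P815-IFNG and P815-M tumors in the shallow libraries. In the 12-library fit without a term for library kind, Parp14 was not called, and Parp11 came close to it in light. The log2 fold changes there were 0.83 (SE 0.70) for Parp14 and 0.80 (SE 0.45) for Parp11. In dark, the shallow P815-IFNG libraries held Parp14 at 43.1 and 44.6 CPM against 9.90 to 21.5 in P815-M. In light they held it at 96.1 and 46.8 against 23.7 to 42.0, without overlap in either condition. The deep P815-IFNG libraries, at 6.79 CPM in dark and 17.6 in light, lay below every P815-M library of the same condition. In the shallow libraries the log2 fold change was 1.37 in dark (SE 0.34, adjusted p = 0.0423, edgeR), which the rule called, and 1.27 in light (SE 0.33, adjusted p = 0.139, edgeR), which it did not. With 1 shallow library left out in turn, the light value ranged from 0.64, without P815-IFNG light replicate 1, to 1.70, without P815-IFNG light replicate 2. None of these 10 fits called it, with adjusted p of 0.0652 to 0.731 (edgeR).

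In 12 libraries these values were 0.90 in dark (SE 0.71, adjusted p = 0.606, edgeR) and 0.83 in light (SE 0.70, adjusted p = 0.673, edgeR). With library kind as a term, Parp14 was called in both, at 1.26 in dark (SE 0.32, adjusted p = 0.0427, edgeR) and 1.38 in light (SE 0.31, adjusted p = 0.0478, edgeR), where the rule called 1.54% and 0.436% of 18804 genes. The dark call in the shallow libraries held in 5 of 10 fits that left out 1 library each. It was lost without P815-IFNG dark replicate 1 (1.38, adjusted p = 0.132, edgeR), P815-IFNG dark replicate 2 (1.32, 0.148), P815-M light replicate 2 (1.37, 0.0626), P815-M dark replicate 2 (1.13, 0.134) and P815-M dark replicate 3 (1.43, 0.0917).

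The call stands beside a large background. In dark the rule called 2.19% of 16944 genes in the shallow libraries (371 genes, and 145 to 415 with 1 library left out), against 0.23% in light (39, and 17 to 46), and in 12 libraries 0.0106% of 18804 in dark and 0.016% in light. Among those called in the dark shallow libraries were the macrophage markers C1qa (1.59), C1qb (1.60) and C1qc (1.28), the fibroblast markers Dcn (1.30) and Lum (1.67), 3 of 4 adipocyte markers and the muscle gene Myh4. Of the macrophage markers 9 of 10 were higher in P815-IFNG dark, with summed levels of 1743 to 1901 CPM against 747.5 to 1046 in P815-M dark, and their part in the Parp14 value was not tested. In light the summed level of 1343 to 1940 CPM spanned that of P815-M (1614 to 1846), and 4 of the 10 were higher. The Parp14 value of 1.27 there was not called, and the part of the markers in it was not tested either.

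None of the other 5 genes was called between the lines. In 12 libraries they ran from -0.29 (Parp12, SE 0.46) to 0.80 (Parp11, SE 0.45) in light and from -0.33 (Dtx3l, SE 0.41) to 0.35 (Parp12, SE 0.46) in dark, with Parp9 at -0.10 (SE 0.46) in light and -0.27 (SE 0.47) in dark. In the shallow libraries Parp9 was at 0.27 (SE 0.21) and 0.06 (SE 0.22), Dtx3l at 0.21 and -0.06 and Parp10 at 0.53 and 0.40, so that Parp9 changed sign in both conditions and Dtx3l in light, as did Parp11 in dark (0.34 and -0.04). Every shallow P815-IFNG library stood above every P815-M library for Parp10 and Parp14 in light and for Parp12 and Parp14 in dark, as did 12.9% and 18.6% of all genes. The median of the 6 genes was 0.08 in light and 0.30 in dark in 12 libraries, beside 0.15 and 0.33 over all genes, and 0.40 and 0.23 in the shallow ones, beside -0.00096 and 0.05.

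**Figure D3:**
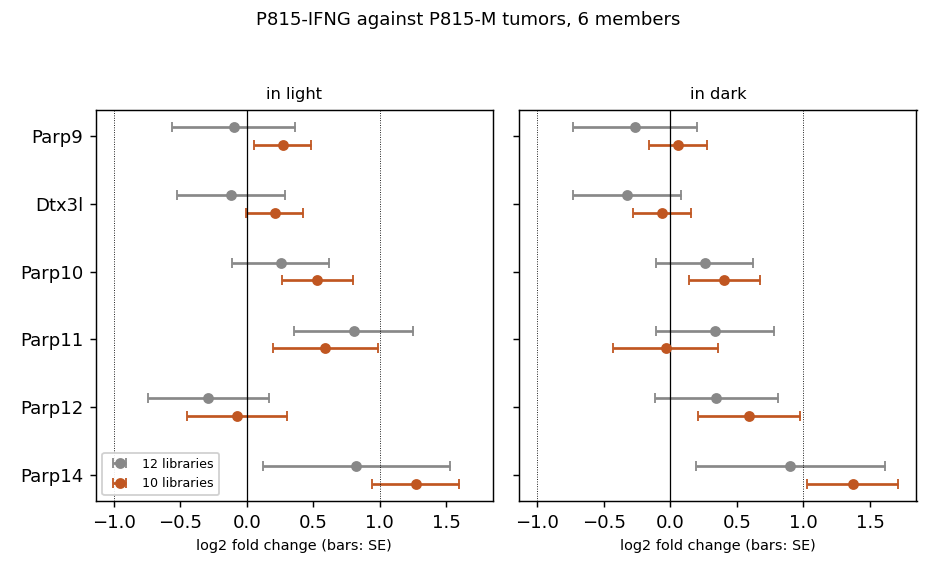
Log2 fold change of P815-IFNG against P815-M tumors for the 6 genes in light and in dark, with bars of 1 standard error, grey for 12 libraries and orange for the 10 shallow ones. Parp14 is farthest to the right in dark, at 0.90 and 1.37, while Parp9 and Dtx3l lie near 0 and change side between the fits except for Dtx3l in dark.

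Because Parp9 and Dtx3l overlap on opposite strands, their balance was read in each kind of library apart. Reads in the 458 shared exon bases can be given to one gene only by strand, and the 2 kinds of library differed in the share of mt-Nd6. The share of Parp9 in the summed counts of both genes was 56.0% of 4476 counts in light (54.6% to 57.5% by a 95% Wilson interval) for the deep pair and 50.9% of 2928 in dark (49.1% to 52.7%), intervals that cover counting error only and do not overlap. In the shallow libraries it ran from 48.2% to 63.9%, on 245 to 764 counts.

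In P815-M tumors the share was 56.9%, 63.9% and 57.7% in light (59.5% ± 3.82, SD, n = 3) and 48.2%, 55.9% and 56.5% in dark (53.5% ± 4.65, n = 3). The groups did not overlap, and the difference of 5.96 percentage points had a two-sided exact permutation p of 0.1, the smallest that 3 against 3 can give. In the shallow P815-IFNG libraries the share was 61.0% and 59.4% in light against 53.3% and 58.8% in dark. Within each line and kind of library the light share thus lay above the dark share, by 4.17 to 5.96 percentage points, although the deep light library lay below 2 of the 5 shallow dark ones.

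**Figure D4:**
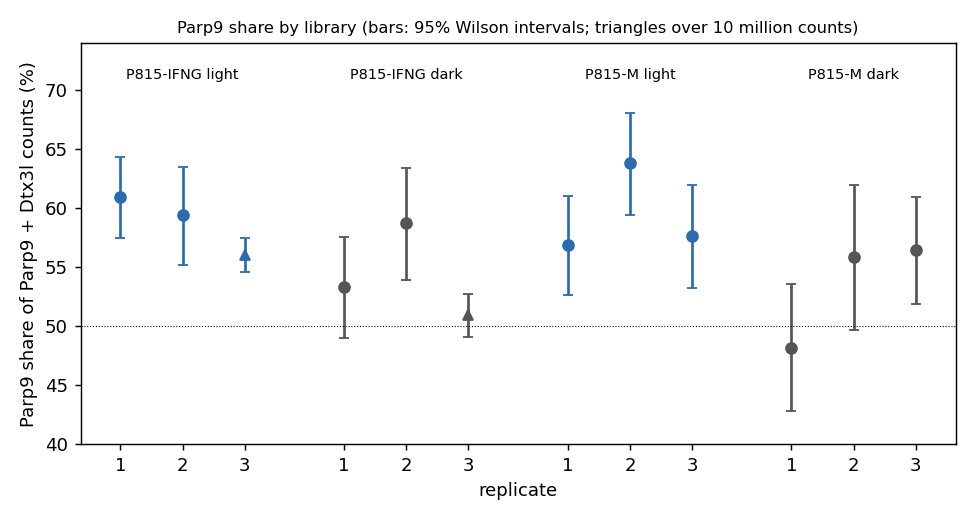
Share of Parp9 in the summed counts of Parp9 and Dtx3l in each library, in percent, with 95% Wilson intervals, blue for light and grey for dark, circles for shallow and triangles for deep libraries. Light libraries of P815-M lie at 56.9% to 63.9% and dark ones at 48.2% to 56.5%, and the deep pair at 56.0% and 50.9%.

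The genes also varied together from library to library. Over the 10 shallow libraries, which share their group differences and depth, the Pearson correlation of log2 CPM was highest for Parp9 with Dtx3l (0.90) and between 0.34 and 0.66 for the other pairs. Dtx3l followed the mean of the other 5 most closely (0.81) and Parp11 least (0.55). The mean of the standardised log2 CPM of the 6 genes was highest in P815-IFNG light replicate 1 (1.57 SD units) and lowest in P815-M dark replicate 2 (-1.37). Of 7301 other genes with a mean of at least 20 CPM, the 8 most like that mean profile were Samhd1 (r = 0.98), Irf1 (0.98), Iigp1 (0.98), Gbp9 (0.97), Gbp6 (0.96), Gbp7 (0.96), Gbp2b (0.95) and Tnfaip2 (0.95), given without a test since the libraries that carry the group differences also set the likeness. Their averaged light effects in the shallow libraries ran from 0.96 to 1.73 on the log2 scale, with adjusted p from 0.0518 to 0.131 (edgeR).

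**Figure D5:**
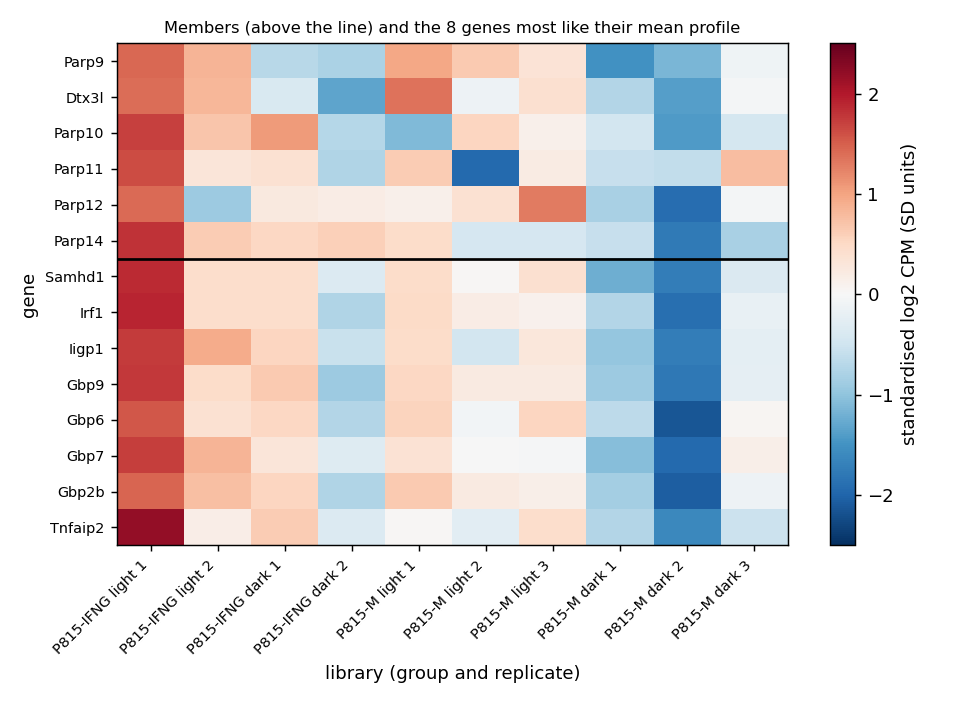
Standardised log2 CPM, in SD units over the 10 shallow libraries, of the 6 genes (above the line) and of the 8 genes most like their mean profile, with libraries ordered by group. P815-IFNG light replicate 1 is the highest column and P815-M dark replicate 2 the lowest, while Parp11 follows the mean of the other genes least, with a correlation of 0.55.

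Of 11 other PARP genes, which include the DNA-damage sensor Parp1, the tankyrases and the RNA-binding antiviral protein Zc3hav1, none was called in any comparison in either fit, and the averaged light effect was positive for 6 and negative for 5 in 12 libraries (median 0.08) and for 5 and 6 in the shallow ones (median -0.03). The 3 most abundant in the shallow libraries were Zc3hav1 (45.97 to 76.1 CPM), Parp1 (40.7 to 70.0 CPM) and Tnks2 (28.8 to 51.8 CPM), with averaged light effects there of -0.30 (SE 0.15), -0.32 (SE 0.15) and -0.27 (SE 0.16) and adjusted p of 0.318, 0.298 and 0.418 (edgeR). Of 7 genes listed for the removal of ADP-ribose from proteins, such as Parg and Macrod1, none was called. In 12 libraries their light effects were negative for 7 of 7 in P815-M tumors, 5 of 7 in P815-IFNG tumors and 6 of 7 on average. The shallow libraries gave 4 of 7 in P815-IFNG tumors. The median averaged light effect of the 7 genes was -0.27 in 12 libraries and -0.21 in the shallow ones. Their most abundant members were Macrod1 (0.13, SE 0.20), Adprhl2 (-0.20, SE 0.17) and Adprh (-0.21, SE 0.24) in the shallow libraries.

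Dtx1, Dtx2, Dtx3 and Dtx4, the other Deltex ubiquitin ligases, were not called either. Dtx3 was the most abundant of them at 66.9 to 93.0 CPM with an averaged light effect of 0.02 (SE 0.12), and Dtx4 was at 0.12 (SE 0.22) and Dtx2 at 0.08 (SE 0.28). Of 12 genes of NAD supply and use, 11 were tested in the shallow libraries and 1 was called, higher in light in P815-M tumors and on average. It was Bst1, an NAD-consuming surface enzyme, at 2.06 (SE 0.47, adjusted p = 0.0457, edgeR) and 1.81 (SE 0.34, adjusted p = 0.0221, edgeR), with levels from 2.61 to 71.6 CPM over those libraries, and it was not called in 12 libraries. Nampt, the rate-limiting enzyme of NAD salvage, was at 0.21 (SE 0.17) on average and Sirt1 at 0.04 (SE 0.22).

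Of 13 genes from the interferon receptors to their transcription factors, 8 had a positive averaged light effect in 12 libraries and 7 in the shallow ones, and none was called for light. Irf1, an interferon-induced transcription factor, had an averaged light effect of 1.11 in the shallow libraries (SE 0.29, adjusted p = 0.0791, edgeR). Stat3 was at -0.04 (SE 0.13) and Socs1, a feedback inhibitor, at -0.06 (SE 0.19). Between the lines in dark, all 13 were higher in P815-IFNG in the shallow libraries (median 0.37, beside 0.05 over all genes) and 1 was called, the receptor chain Ifngr1 (1.28, SE 0.26, adjusted p = 0.018, edgeR). In 12 libraries 11 of the 13 were higher (median 0.37, beside 0.33 over all genes) and none was called.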

How the data were processed

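The authors deposited raw counts of reads per gene symbol for each library, made per the labels and methods from stranded TruSeq mRNA libraries with fastp, STAR 2.7.9a and HTSeq 0.13.5 at default settings on mm10 with the inserted sequences added. HTSeq's default counts a first read on its gene's own strand, whereas this kit's first reads come from the other strand. This bears on the counts of every gene and not only of genes that overlap. Shallow and deep libraries differed in total counts and in the share of mt-Nd6, and the part of the strand setting in this was not tested. All levels, fold changes and shares given here are therefore those of the counts as they stand. The counts were used as deposited. The 13 mitochondrial rows and genes with fewer than 10 counts in all were left out, libraries were scaled by TMM, and groups were compared with edgeR 4.0.16 (quasi-likelihood, Benjamini-Hochberg adjustment, R 4.3.3) over all 12 libraries. The call rule, as in the study's methods, asked for adjusted p no higher than 0.05 together with a log2 fold change of 1 or more in either direction. Standard errors are the fold change over the root of its F statistic, CPM are TMM-scaled, and CPM per kb uses the exon bases of the annotation.

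The 6 genes and the gene lists were chosen with earlier results of these data known. All 6 genes are named, lists are given by their counts and their 3 most abundant genes in the shallow libraries, of which 1 is not reported here, and Irf1, Bst1, Ifngr1 and the called marker genes were named after their values were seen, as were the values without single libraries. Genes of similar pattern are the 8 with the highest correlation. Alternatives were DESeq2 1.42.0, its size factors, other filters, subsets of libraries, library kind as a term, ComBat-seq (sva 3.50.0), a replicate block and each library left out. The code was tested on simulated counts. Deviations from group means correlated by replicate number at 0.87, 0.86 and 0.97 between P815-IFNG light and dark. Between P815-M light and dark the values were -0.06, 0.02 and -0.34. Number 3 is the deep library of both P815-IFNG groups. It pulls the group means, which puts numbers 1 and 2 on the same side in both groups. The P815-IFNG correlations therefore cannot show whether equal numbers are pairs. Each library is 1 mouse, and a count of 0 allows up to 1.05 to 1.39 CPM in shallow libraries and 0.0744 to 0.0774 CPM in deep ones.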

Additional observations from a re-analysis of the deposited data

How the results depend on the processing

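The directions of the averaged light effects of the 6 genes were the same under every alternative tried. The medians of the 6 genes moved in none of the comparisons by more than the SD between replicates of that median. This SD, 0.51 on the log2 scale, is close to the light medians of 0.57 to 0.67. Staying within it therefore does not show that the medians were stable. With single libraries left out, light medians ranged from 0.18 to 0.83 in P815-IFNG, 0.49 to 0.79 in P815-M and 0.33 to 0.72 on average. The others ran from -0.24 to 0.41 for the lines in light, 0.0091 to 0.45 in dark and -0.23 to 0.40 for the difference. The counts of called genes depended strongly on how the 2 deep libraries were treated, in the order P815-IFNG light effect, P815-M light effect, averaged light effect, lines in light, lines in dark and difference between lines. They were 0, 0, 0, 3, 2 and 0 in the 12-library fit, 1, 157, 77, 39, 371 and 2 in the shallow libraries (1, 202, 150, 41, 541 and 2 at any fold, chosen after seeing the data), 2, 194, 149, 82, 290 and 3 with library kind as a term, 122, 235, 263, 243, 489 and 27 after ComBat-seq and 4, 1, 6, 41, 38 and 4 with DESeq2. Using only the libraries compared gave 244 genes for light in P815-M and 0 for the lines in light and 0 in dark. For the lines in dark, DESeq2's size factors gave 4 and filterByExpr 4. Leaving out single libraries gave 1 to 4 genes for the lines in light and 1 to 6 in dark, and 0 for the other comparisons. Leaving out 1 of the shallow libraries (chosen after seeing the data) gave 0 to 9, 18 to 229, 17 to 150, 17 to 46, 145 to 415 and 0 to 3 genes in the same order. The lowest was without P815-M light replicate 1 for light in P815-M, without P815-IFNG light replicate 1 on average and for the lines in light, and without P815-IFNG dark replicate 2 for the lines in dark.

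Of the 6 genes, 1 was called with library kind as a term and 1 after ComBat-seq for the lines in light and 1 under each for the lines in dark, where the shallow libraries also called 1, at any fold too, and 1 passed the averaged light effect at any fold there. It was Parp14 between the lines and Parp9 for light.

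A replicate block gave 7 called genes for the lines in dark against 2, and changed no call of the 6 genes. Light against dark in P815-IFNG tumors gave 0 called genes with the block and without it.

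Between the lines in light, Parp9 and Dtx3l turned from -0.10 and -0.12 to 0.27 and 0.21 in the shallow libraries, 0.22 and 0.16 with library kind as a term and 0.26 and 0.19 after ComBat-seq, and Parp12 to 0.0031 after ComBat-seq. In dark, Parp9 turned from -0.27 to 0.056, 0.10 and 0.065 under the same 3 and Parp11 from 0.34 to -0.036 in the shallow libraries and -0.0071 after ComBat-seq. The deep pair alone turned Parp10 in P815-IFNG tumors to -0.07. With single libraries left out, the light effect in P815-IFNG tumors ranged from -0.033 to 0.62 for Parp10, -0.34 to 0.49 for Parp12 and -0.012 to 1.21 for Parp14, the lowest in each case without light replicate 1, and Parp12 was at -0.05 without dark replicate 3. Parp11 in P815-M tumors ranged from -0.29 to 0.24. The lines in light ranged from -0.45 to 0.28 for Parp9, -0.41 to 0.23 for Dtx3l and -0.064 to 0.54 for Parp10, and in dark from -0.52 to 0.061 for Parp9, -0.12 to 0.41 for Parp10 and -0.029 to 0.59 for Parp11. The cause of these turns was not tested. The Parp9 share in P815-M tumors kept its direction in all 7 alternatives. Since its light and dark libraries did not overlap, leaving one out could not have reversed it, and the difference ranged from 3.28 to 7.45 percentage points. Fits that left a group with 1 library assume that it varies like the others, and 12 to 34 counts of Parp11 in P815-M libraries limit what could be detected.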
